A study of Mus musculus with 12 samples.

Results

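The cells compared here are those labelled c-kit+ and those labelled CD44+ from mouse bone marrow cultures that received no estradiol. The arrays titled control were taken, 3 for each label, which makes 6 of the 12 arrays of the study. The other 6 arrays are of the same labels from cultures given 1 nM 17β-estradiol for 1 week, and the same comparison in them is given below. They do not enter the control differences, but they share the estimate of spread and the choice of probe set with them. All samples came from primary cultures of whole bone marrow of female C57BL/6 mice aged 6 weeks, none with a transgene or a deletion in the labels. Total RNA of each sample was amplified in 2 cycles of transcription, labelled with biotin and hybridized to an Affymetrix mouse array. The labels call c-kit+ cells stem cells and CD44+ cells stromal cells; the sources used here do not give how they were separated. The labels are silent on whether the 3 replicates of a group are separate cultures or mice, so all p-values below reflect the spread among the arrays, which may be technical. Values are log2 expression values, and differences are the mean of the 3 c-kit+ arrays minus the mean of the 3 CD44+ arrays, so that a negative difference means a higher value in CD44+ cells.

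c-kit is the receptor for stem cell factor, encoded by Kit, and marks hematopoietic stem and progenitor cells and mast cells. CD44 is a receptor for hyaluronan, a sugar polymer of the extracellular matrix, and is carried by many leukocytes as well as by mesenchymal stromal cells. In bone marrow the stromal cells build the matrix and secrete the chemokine Cxcl12 and the Kit ligand, Kitl, which hold and feed blood stem cells. Adherent marrow cultures also hold macrophages, which depend on the receptor Csf1r.

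The genes that give the fractions their names did not separate them. Kit read 3.96, 4.08 and 3.88 on the c-kit+ arrays and 3.79, 4.22 and 4.02 on the CD44+ arrays. The groups overlapped, with a difference of -0.04 (SE 0.12, limma's adjusted p = 0.938). Background was gauged from 9 probe sets for Y-linked genes, which female mice lack and which ran from 2.86 to 3.81 over the 6 arrays. Kit lay at or just above the top of that range, and 2365 of the 18193 genes (13%) lay at or below it on all 6 arrays. Cd44 read from 11.76 to 12.03 in the fraction labelled c-kit+ and 12.28, 12.21 and 11.85 in the fraction labelled CD44+. Its difference of -0.19 (SE 0.14, adjusted p = 0.615) did not pass, and the groups overlapped. The Kit values thus go against the name c-kit+ stem cells, and "c-kit+" stands below for the arrays so labelled.

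Leukocyte and macrophage genes read high in both fractions. Csf1r, the receptor for macrophage colony-stimulating factor, read 14.05, 14.11 and 13.97 in c-kit+ and 14.04, 14.06 and 13.86 in CD44+ cells. Ptprc, which encodes the leukocyte antigen CD45, read from 13.06 to 13.56 and from 12.71 to 13.25, and Adgre1, which encodes the macrophage protein F4/80, from 13.41 to 13.74 and from 13.00 to 13.57. None of the 3 passed (differences of 0.06, 0.18 and 0.32), and the groups overlapped for each. All 29 measured members of a macrophage list stood above the Y-linked probe sets on all 6 arrays. This alone does not set the list apart. All 23 measured genes of an interferon response list and 41 of 43 of a matrix list did too, and 23 of 27 of a stem and progenitor list.

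**Figure D1:**
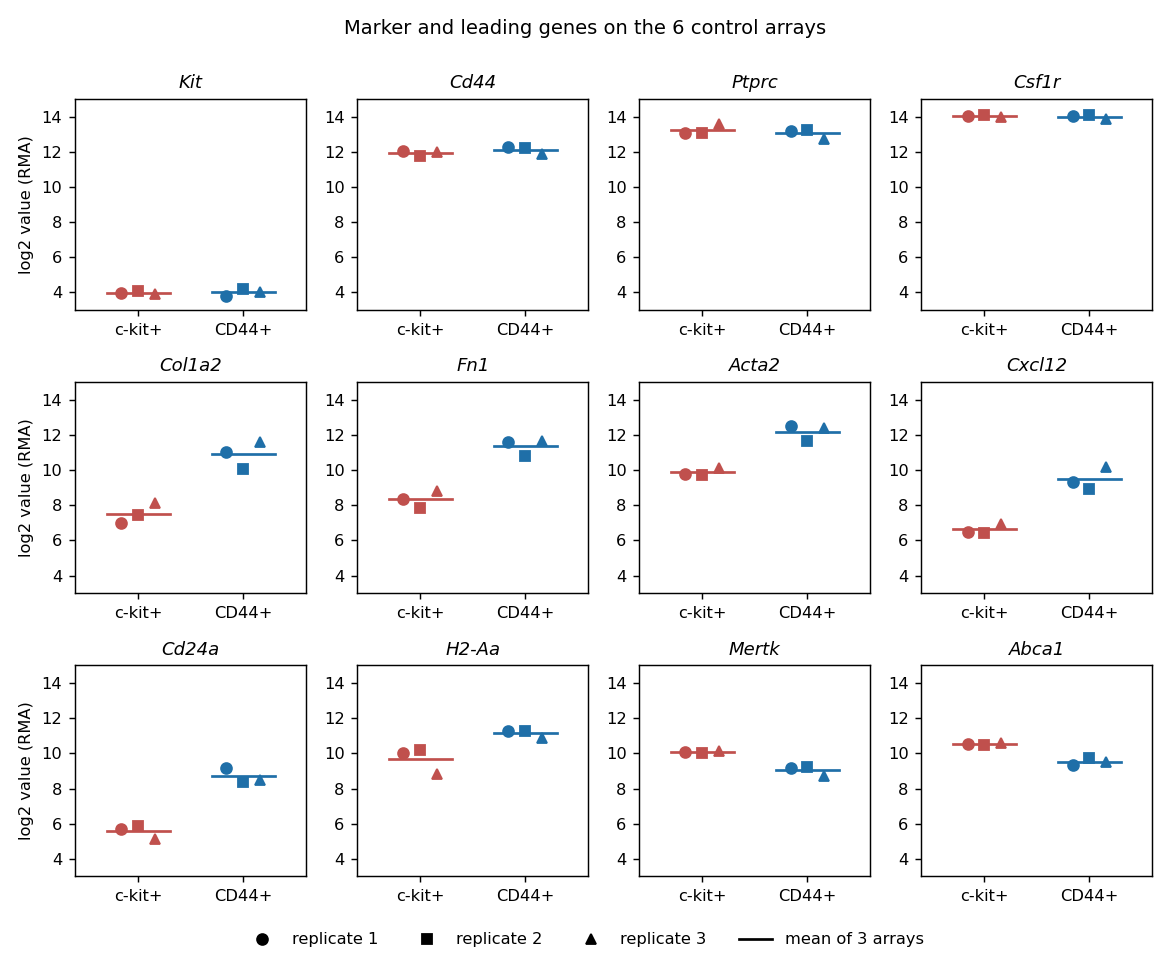
Deposited log2 values (vertical axis, 3 to 15) of 12 genes on the 6 control arrays, c-kit+ in red and CD44+ in blue, 1 point per array with a symbol per replicate number and a line at the mean of 3. Kit lies near background and Cd44, Ptprc and Csf1r lie high in both fractions, while Col1a2, Fn1, Acta2, Cxcl12, Cd24a and H2-Aa are higher on every CD44+ array and Mertk and Abca1 on every c-kit+ array.

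The arrays differed along with the labels in a measure used here for RNA quality, the gap between control probe sets at the 3' and 5' ends. What set this gap was not tested. The Gapdh control probe sets at the 3' end exceeded those at the 5' end by 5.35, 5.23 and 4.62 log2 units on c-kit+ arrays and by 4.14, 3.94 and 2.83 on CD44+ arrays, so the groups did not overlap and the mean gap was 1.43 wider in c-kit+ cells. For Actb the gaps were 3.54, 3.98 and 2.48 against 2.11, 1.96 and 1.52, again without overlap. Toward the middle probe sets the gap differed by 0.15 for Actb, without overlap, and by 0.20 for Gapdh, with overlap (exact two-sided permutation p = 0.3). The exact permutation test gave p = 0.1 for each of the other 3 measures, the smallest that 3 arrays against 3 allow (adjusted p = 0.133 over the 4). The c-kit+ replicate 3 stood apart from its group. Over the 18193 genes, each by 1 probe set, its mean correlation with the other arrays of its label was 0.988, against 0.992 to 0.996 for the other 5 arrays. Counts with a covariate for the Gapdh or the Actb gap stand beside the groups of genes below; both covariates were added after the data were seen.

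Of 18193 genes, 418 (2.3%) differed between the fractions by limma at an adjusted p under 0.05, 320 of them (1.76%) higher in CD44+ cells and 98 (0.539%) higher in c-kit+ cells. An unadjusted p under 0.05 was found for 2467 genes. The direction with more genes also had the larger differences: 230 of the 320 were at least 2-fold and 93 at least 4-fold higher in CD44+ cells, against 14 and 0 of the 98. The 3 arrays of each fraction did not overlap for any of the 418. Over all genes tested, overlap was absent for 8.33% in the direction of CD44+ cells and for 7.41% in the direction of c-kit+ cells, and the median difference was 0.01. The count was 221 without CD44+ replicate 3 (194 higher in CD44+, 27 higher in c-kit+) and 238 without c-kit+ replicate 1 (207 and 31), and without CD44+ replicate 2 the genes higher in c-kit+ cells were 56. Centring each array on its median moved the median difference of all genes to 0.10 and gave 521 genes, of which 46.1% were higher in c-kit+ cells against 23.4% as deposited. With limma's array weights 1058 genes passed, 54.3% of them higher in c-kit+ cells. With the Gapdh gap as a covariate 254 genes passed (219 and 35), 199 of them among the 418, and with the Actb gap 257 (209 and 48), 204 among them.

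**Figure D2:**
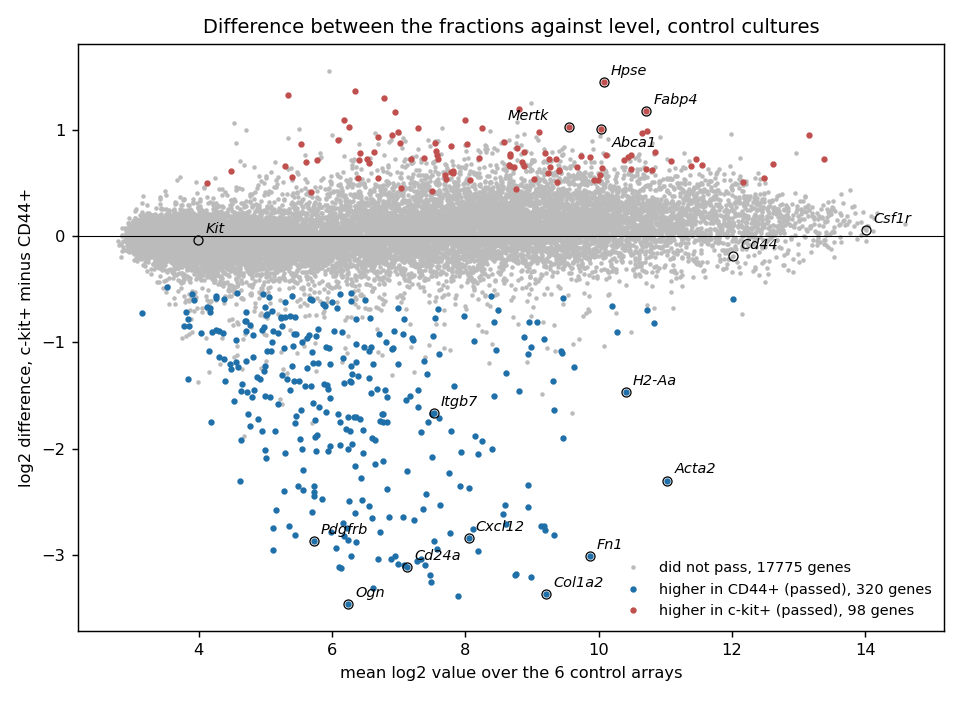
Difference between the fractions in log2 units (vertical axis, c-kit+ minus CD44+) against the mean log2 value over the 6 control arrays (horizontal axis), 1 point per gene; blue and red points passed the test and grey ones did not. Differences toward CD44+ cells reach -3.46 and those that passed toward c-kit+ cells reach 1.45, and Kit, Cd44 and Csf1r lie near 0.

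Genes of the extracellular matrix had the highest share of members higher in CD44+ cells among the 31 lists. Of 43 measured members of a matrix list, 31 (72.1%, against 1.76% of all genes) were higher in CD44+ cells, 0 were higher in c-kit+ cells and 12 did not pass, and the median difference was -2.38 (0.01 over all genes). Whether CD44+ samples held more matrix-producing cells or more matrix RNA per cell cannot be told apart in bulk RNA. The mean level of the list was 5.88, 5.71 and 6.14 on c-kit+ arrays and 8.01, 7.33 and 8.01 on CD44+ arrays. Leaving out each control array in turn left 27 to 32 members called, and the covariates for the Gapdh and Actb gaps left 26 and 27.

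Several fibrillar collagens were among the largest differences of the matrix list. Col1a2, a chain of type I collagen, read 7.00, 7.42 and 8.14 in c-kit+ cells and 11.03, 10.06 and 11.59 in CD44+ cells. Every CD44+ array lay above every c-kit+ array, by 10.3-fold on average (difference -3.37, SE 0.40, adjusted p = 0.000763). Col5a2, a chain of type V collagen that helps set fibril width, read 7.43, 6.84 and 7.89 against 11.03, 9.97 and 10.78, a 9.22-fold difference in the same direction (adjusted p = 0.000654). Col5a1, the partner chain, was 8.24-fold higher in CD44+ cells (difference -3.04, SE 0.28, adjusted p = 0.000231) and Col3a1, of type III collagen, 8.54-fold (adjusted p = 0.00467). Col6a1, Col6a2 and Col6a3, the chains of the pericellular type VI collagen, differed by -2.64, -2.76 and -2.65, and Col4a1 and Col4a2, of basement membrane collagen, by -2.53 and -2.38. Each of these 5 passed, and all but Col6a3 were named after their values were seen.

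Col1a1, the other chain of type I collagen, differed less than Col1a2. It read 6.29, 6.77 and 6.64 in c-kit+ cells and 8.69, 7.43 and 8.84 in CD44+ cells (difference -1.75, SE 0.36, adjusted p = 0.0195). The groups did not overlap, but the call was lost without c-kit+ replicate 1 (adjusted p = 0.0879), CD44+ replicate 1 (0.07) or CD44+ replicate 3 (0.118). It was also lost with the covariate for the Gapdh or the Actb gap, with array weights and with the 6 control arrays fitted alone. Over all collagen chain genes on the array, a family counted after the data were seen, 14 of 42 were higher in CD44+ cells and 0 in c-kit+ cells, with a median of -0.18. Of all genes tested 1.76% were higher in CD44+ cells. Col8a1, of a short-chain collagen, had a difference of -2.72 with overlapping groups and did not pass (adjusted p = 0.0936; named after its values were seen).

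Glycoproteins, proteoglycans and enzymes of the matrix were higher in CD44+ cells in the same range as the collagens. Fn1, which encodes fibronectin, read 8.38, 7.87 and 8.84 in c-kit+ and 11.62, 10.83 and 11.67 in CD44+ cells. The groups were well apart (8.05-fold, difference -3.01, SE 0.39, adjusted p = 0.00126). Ogn, the small leucine-rich proteoglycan osteoglycin, had the most negative difference of all genes, with 4.46, 4.24 and 4.81 against 8.21, 7.03 and 8.67 (-3.46, SE 0.47, adjusted p = 0.00151). Vcan, a large hyaluronan-binding proteoglycan, differed by -3.01 (adjusted p = 0.000913), although only 2 of its 8 probe sets passed when tested one by one. Thbs2, a matricellular protein that restrains vessel growth, differed by -2.94 (SE 0.27, adjusted p = 0.000209), and Serpinh1, the collagen chaperone, by -2.87 (SE 0.31, adjusted p = 0.000475). Lox, which cross-links collagen, differed by -2.71, Sparc, a collagen-binding glycoprotein of bone, by -2.57, and Bgn, the proteoglycan biglycan, by -2.82; each passed, and Lox and Bgn were named after their values were seen.

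The list was not uniform throughout. Dcn and Lum, leucine-rich proteoglycans like Ogn, had differences of 0.04 and -0.05, and Eln, which encodes elastin, had 0.04. Lum had mean levels of 3.6 in c-kit+ and 3.7 in CD44+ cells, within the range of the Y-linked probe sets. P4ha1, a collagen prolyl hydroxylase that many cell types express, read higher, with a difference of 0.05. None of these 4 passed (adjusted p from 0.911 to 0.948).

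**Figure D3:**
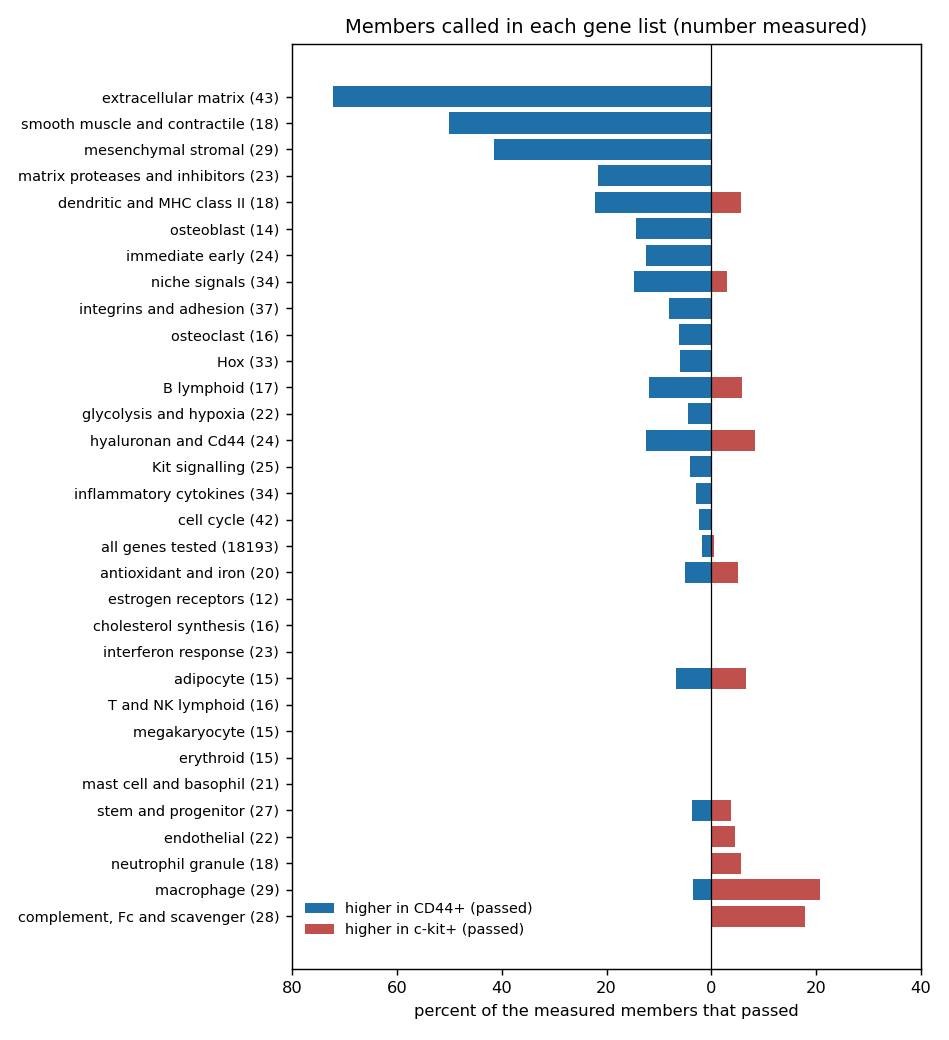
Percent of the measured members of 31 gene lists and of all genes tested (number measured in brackets) that passed, to the left those higher in CD44+ cells and to the right those higher in c-kit+ cells. The matrix (72.1%), contractile (50%) and mesenchymal (41.4%) lists reach farthest to the left, and the macrophage (20.7%) and the complement, Fc and scavenger (17.9%) lists farthest to the right, beside 1.76% and 0.539% of all genes.

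Genes of the contractile apparatus of smooth muscle and myofibroblasts were higher in CD44+ cells as well. Of 18 measured, 9 (50%, against 1.76% of all genes) were higher there, 0 were higher in c-kit+ cells, and the median was -0.72. The mean level was 6.33, 6.24 and 6.30 on c-kit+ arrays and 7.63, 7.18 and 7.56 on CD44+ arrays. From 8 to 9 members passed when a control array was left out, and 7 passed with either covariate for RNA quality. Acta2, smooth muscle actin, read 9.78, 9.74 and 10.13 against 12.49, 11.66 and 12.41. The CD44+ arrays were all higher, by 4.93-fold (difference -2.30, SE 0.22, adjusted p = 0.000231), while its other 2 probe sets lay at background on all 6 arrays. Cald1 (caldesmon), Tpm2 (a tropomyosin), Tagln (transgelin) and Myl9 (a regulatory light chain of myosin) differed by -2.73, -2.72, -2.37 and -2.39, and all passed. Members that mark mature smooth muscle did not pass. Myh11, its myosin heavy chain, had a difference of -0.17 and Des, desmin, one of -0.09.

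The promoter windows of 4 genes that differed are shown because they hold motifs known from the control of contractile, matrix and cholesterol genes. Each window runs from 250 bases before to 50 bases after the gene's start and comes from RefSeq on build GRCm38.p6, printed 5′ to 3′ on the gene's strand with the motif in capitals. The 4 were picked with their values and motifs in view. The CArG box is bound by serum response factor, CATTCC by TEAD factors, and the DR4 element by liver X receptors with their partner RXR. Acta2 (chr19:34255324-34255623, minus strand) holds CATTCC from -146 to -141, read as its reverse complement GGAATG on the printed strand. Ccn1 (chr3:145649936-145650235, minus strand), a matricellular protein of the matrix list, holds CATTCC from -103 to -98. Myl9 (chr2:156775214-156775513, plus strand) holds a CArG box from -161 to -152, and Abca1 (chr4:53159846-53160145, minus strand), a cholesterol exporter that was higher in c-kit+ cells, holds a DR4 element from -67 to -52 on the opposite strand.
Acta2: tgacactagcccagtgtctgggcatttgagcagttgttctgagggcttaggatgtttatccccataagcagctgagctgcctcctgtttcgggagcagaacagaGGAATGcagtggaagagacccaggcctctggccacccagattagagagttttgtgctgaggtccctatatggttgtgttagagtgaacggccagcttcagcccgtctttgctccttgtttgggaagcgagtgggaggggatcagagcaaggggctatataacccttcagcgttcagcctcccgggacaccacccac
Ccn1: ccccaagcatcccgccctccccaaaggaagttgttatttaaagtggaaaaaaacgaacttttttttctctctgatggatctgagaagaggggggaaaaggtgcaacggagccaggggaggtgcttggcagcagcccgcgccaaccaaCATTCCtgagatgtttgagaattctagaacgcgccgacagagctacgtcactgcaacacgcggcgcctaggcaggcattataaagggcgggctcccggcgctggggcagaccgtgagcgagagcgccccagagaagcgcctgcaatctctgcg
Myl9: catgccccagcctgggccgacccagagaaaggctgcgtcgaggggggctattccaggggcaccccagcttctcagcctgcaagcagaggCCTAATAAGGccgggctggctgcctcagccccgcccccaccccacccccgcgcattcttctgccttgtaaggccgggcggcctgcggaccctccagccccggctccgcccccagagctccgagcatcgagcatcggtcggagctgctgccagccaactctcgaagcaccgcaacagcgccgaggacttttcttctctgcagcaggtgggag
Abca1: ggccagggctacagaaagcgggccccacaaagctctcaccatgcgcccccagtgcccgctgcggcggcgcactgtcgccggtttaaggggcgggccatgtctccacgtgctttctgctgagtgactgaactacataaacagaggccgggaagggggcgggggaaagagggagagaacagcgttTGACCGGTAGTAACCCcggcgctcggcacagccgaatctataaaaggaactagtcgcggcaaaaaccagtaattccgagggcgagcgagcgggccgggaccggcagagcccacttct

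Most windows of the genes that passed lacked each of these motifs, as did most windows of all genes. Both strands of the windows were searched for exact matches of the CArG box (CC, then 6 letters that are each A or T, then GG), CATTCC and the DR4 element and for TATAAA, the core of the TATA box, which can share letters with a CArG box. Promoters were found for 236 of the 320 genes higher in CD44+ cells and for 79 of the 98 higher in c-kit+ cells. A CArG box stood in 3.25% of the 308 windows of the former, 1.9% of the 105 windows of the latter, 1.63% of all 32851 windows and 1.35% of the 18109 windows of genes tested. In the same order the shares were 16.6%, 12.4%, 14.7% and 13.2% for CATTCC and 11%, 14.3%, 13.6% and 9.77% for TATAAA. A DR4 element stood in 0%, 0.952%, 0.183% and 0.155%, the 0.952% being that of Abca1 alone. Ccn1 and Abca1 also hold TATAAA, at -25 and -29. Among the 9 contractile genes higher in CD44+ cells, 7 had a window, and CATTCC stood in 4 of their 8 windows (Acta2, Cald1, Mylk and Tpm1) and an exact CArG box in 1. The window of Acta2 holds 2 sites that are 1 letter off the CArG pattern, and 19.9% of all windows hold at least 1 such site. Ccn1 differed by -1.72 (adjusted p = 0.000763). A match to a motif is a description of the letters only.

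A list of mesenchymal stromal genes shares collagens with the matrix list. Of its 29 members 12 (41.4%, against 1.76% of all genes) were higher in CD44+ cells and 0 in c-kit+ cells. Its median was -0.60 and its mean level 5.47, 5.44 and 5.64 against 6.91, 6.38 and 7.04. Leaving out a control array gave 10 to 13 members and the covariates gave 10 and 11. Cxcl12, the chemokine that retains stem cells in marrow, read 6.48, 6.44 and 6.96 in c-kit+ and 9.32, 8.93 and 10.16 in CD44+ cells. The groups did not overlap (7.18-fold, difference -2.84, SE 0.42, adjusted p = 0.00257). Snai2 and Prrx1, transcription factors of mesenchymal cells, differed by -2.80 (adjusted p = 0.000475) and -2.75 (adjusted p = 0.0009). The cadherins Cdh11 and Cdh2 differed by -2.96 and -2.30, and in c-kit+ cells Cdh2 read 3.34, 3.65 and 3.40, no higher than Y-linked probe sets. Cdh11 lost its call with the Gapdh covariate, and Cdh2 when the probe set was chosen on the 6 control arrays. Both lost theirs with the 6 control arrays fitted alone with a replicate block.

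Receptors and ligands of the stroma were less uniform. Pdgfrb, a receptor for platelet-derived growth factor on pericytes, read 3.82, 4.01 and 5.04 against 7.60, 6.32 and 7.56 (difference -2.87, SE 0.53, adjusted p = 0.0112). Every CD44+ array was higher, but the call was lost without c-kit+ replicate 1 (adjusted p = 0.0585) or CD44+ replicate 3 (0.0711). Pdgfra, its sister receptor, read 4.27, 4.93 and 4.69 against 5.83, 5.33 and 6.50, without overlap, and did not pass (-1.25, adjusted p = 0.06). Kitl, the ligand of c-kit, read 8.39, 8.36 and 8.42 against 9.31, 8.75 and 8.91 and did not pass either (-0.60, adjusted p = 0.149). Lepr, Thy1 and Nt5e, used as markers of marrow or cultured stromal cells, had differences of -0.17, -0.31 and 0.16 and did not pass.

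Secreted signals and protease inhibitors held further members. In a list of 34 niche signals 5 (14.7%) were higher in CD44+ cells, against 1.76% of all genes. Hgf alone (2.94%, against 0.539% of all genes) was higher in c-kit+ cells (0.42, adjusted p = 0.0411, named after its values were seen). No member was higher in c-kit+ cells without c-kit+ replicate 1 or 2, without CD44+ replicate 2 or 3, or with the Gapdh or Actb covariate. Beside Cxcl12, the growth factor Tgfb3 differed by -1.75 (adjusted p = 0.00324), and all 3 CD44+ arrays lay above the c-kit+ arrays. Csf1, which feeds macrophages through Csf1r, differed by -1.17 (adjusted p = 0.00923), a call lost without CD44+ replicate 3 (adjusted p = 0.0565) or with the covariate for the Gapdh (0.108) or Actb gap (0.0961). Of 23 matrix proteases and inhibitors 5 (21.7%, against 1.76% of all genes) were higher in CD44+ cells and 0 in c-kit+ cells. The 5 were the inhibitors Timp1 (-2.67) and Timp3 (-1.74) and the proteases Mmp2 (-2.08), Adamts1 (-1.71) and Mmp23 (-1.48). Adamts1 did not pass with the Gapdh (adjusted p = 0.0832) or the Actb (0.0802) covariate. Timp2, Mmp12 and Mmp14, each with a mean above 10 in both fractions, had differences of 0.02, 0.13 and 0.24 and did not pass.

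Some of the largest differences belonged to genes outside these lists. F2r, the thrombin receptor PAR1, read 6.14, 6.22 and 6.22 in c-kit+ and 9.97, 9.04 and 9.73 in CD44+ cells (10.5-fold, difference -3.39, SE 0.33, adjusted p = 0.000272). Cd24a, a small glycoprotein of B-cell precursors, neutrophils and epithelial cells, had with Itgb7 the smallest adjusted p of all genes. It read 5.72, 5.85 and 5.15 against 9.18, 8.38 and 8.50, and all 3 of its probe sets passed (8.66-fold, difference -3.11, SE 0.23, adjusted p = 0.000103). Itgb7, an integrin subunit of lymphocytes and some myeloid cells, read 6.79, 6.60 and 6.68 against 8.53, 8.32 and 8.22 (3.18-fold, difference -1.67, SE 0.13, adjusted p = 0.000103). For both genes the gap between the fractions was several times the spread within either.

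The growth hormone receptor gene Ghr differed by -3.11 (SE 0.27, adjusted p = 0.000169), Grb10, an imprinted adaptor of insulin signalling, by -3.06 and Ndn, an imprinted growth suppressor, by -3.10. Cyp1b1, a cytochrome P450 that metabolizes estradiol, differed by -3.25 (SE 0.37, adjusted p = 0.00066), and Fscn1, the actin-bundling protein fascin, by -3.18 (adjusted p = 0.000231). Efemp1 (-3.31) is a fibulin of the matrix, Cnn3 (-3.19) a calponin, Prss23 (-3.19) a serine protease and Ccdc80 (-3.04) a matrix protein. Lhfp (-3.12), Fstl1 (-3.08), a secreted follistatin-like protein, and Tm4sf1 (-3.04), a membrane protein, complete the 20 most negative differences. All 20 kept their calls in each of the 27 alternatives run, among them every array left out and both covariates. Not all rest on several probe sets: 1 of 4 passed for Fscn1 and 1 of 3 for Grb10 and for Tm4sf1.

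Hspa1b, an inducible heat shock protein, differed by -1.51 (SE 0.16, adjusted p = 0.000475), with 7.67, 7.83 and 7.52 against 9.44, 8.95 and 9.16. It stands in a list of 24 immediate early and stress genes (median -0.04). Of these 3 (12.5%, against 1.76% of all genes) were higher in CD44+ cells and 0 in c-kit+ cells. Beside Hspa1b they were Klf4 and Klf2. Klf4 lost its call without CD44+ replicate 1 (adjusted p = 0.0512) or c-kit+ replicate 2 (0.0541). Klf2 lost its call in every fit without 1 array except that without c-kit+ replicate 1 (0.0558 to 0.198). The count was 1 without CD44+ replicate 1, without c-kit+ replicate 2 and with the 6 control arrays alone. Ccnd2, which encodes cyclin D2, differed by -1.88 (SE 0.30, adjusted p = 0.00415). It was the 1 call among 42 cell cycle genes, a share (2.38%) near the 1.76% of all genes higher in CD44+ cells. Mki67, a marker of dividing cells, read between 12.13 and 13.04 on the 6 arrays and did not pass (0.34).

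Some genes of antigen presentation by MHC class II were higher in CD44+ cells. In a list of 18 dendritic cell and class II genes, 4 (22.2%, against 1.76% of all genes) were higher there, with a list median of -0.07, and the 4 are the class II chains H2-Aa, H2-Eb1 and H2-Ab1 and the invariant chain Cd74. Cd74 read 7.25, 7.51 and 6.60 in c-kit+ and 8.32, 8.80 and 8.48 in CD44+ cells (2.66-fold, difference -1.41, SE 0.21, adjusted p = 0.00317). H2-Aa read 10.00, 10.18 and 8.84 against 11.29, 11.28 and 10.85 (difference -1.47, SE 0.29, adjusted p = 0.0181). The groups did not overlap for either, and c-kit+ replicate 3 was the lowest array for both. H2-Eb1 differed by -1.29 (adjusted p = 0.00656) and H2-Ab1 by -1.10 (adjusted p = 0.0254). The call of H2-Aa was lost without CD44+ replicate 1 (adjusted p = 0.0615) or 2 (0.0605), and that of H2-Ab1 without CD44+ replicate 1 (0.0788) or 2 (0.0935) or any c-kit+ replicate (0.0536, 0.0507 and 0.0611). Ciita, the master regulator of class II genes, had a difference of 0.08, and the dendritic cell genes Itgax, Zbtb46 and Xcr1 had -0.12, -0.26 and -0.04; none passed. The 1 member higher in c-kit+ cells was Irf8, a transcription factor of monocytes and dendritic cells (0.75, adjusted p = 0.0239), a call lost without c-kit+ replicate 1 (0.0879) or 3 (0.0595) or CD44+ replicate 2 (0.069) or 3 (0.125). With the Gapdh and Actb covariates the adjusted p was 0.0703 and 0.0787 for H2-Ab1 and 0.247 and 0.129 for Irf8.

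Genes higher in c-kit+ cells differed by less, 1.45 at most. Mertk, a receptor by which macrophages take up dying cells, read 10.09, 10.00 and 10.12 in c-kit+ and 9.19, 9.25 and 8.69 in CD44+ cells (2.03-fold, difference 1.02, SE 0.14, adjusted p = 0.0017). Abca1, which exports cholesterol to apolipoproteins, read 10.55, 10.47 and 10.60 against 9.32, 9.76 and 9.53 (2.01-fold, difference 1.01, SE 0.16, adjusted p = 0.00349). Cmklr1, the chemerin receptor, read 6.69, 6.78 and 6.71 against 5.82, 5.58 and 5.50 (2.13-fold, difference 1.09, SE 0.15, adjusted p = 0.00146). For these 3 genes the c-kit+ arrays lay close together. They also lay above all CD44+ arrays, as for each of the 98 genes higher in c-kit+ cells. Cmklr1 was the 1 gene of the 20 most positive differences that kept its call in all 27 alternatives. Mertk and Abca1 lost theirs only with the 6 control arrays fitted alone with a replicate block. With probe sets tested one by one, 1 of 2 passed for Cmklr1 and 1 of 3 for Abca1.

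Apoe, the apolipoprotein that macrophages secrete, read 13.92, 13.60 and 13.70 against 13.25, 12.92 and 12.88 (1.65-fold, difference 0.72, SE 0.12, adjusted p = 0.00651). Cd5l, a secreted scavenger protein of tissue macrophages, differed by 0.95 (adjusted p = 0.0063) and read above 12 on every array. Npl, a lyase of sialic acid breakdown, differed by 1.30 (SE 0.19, adjusted p = 0.00259), Reps2, an endocytosis adaptor, by 1.09 (adjusted p = 0.00349), and Gm13238 and A430108G06Rik, which the platform names without a function, by 1.36 and 1.33. None of these 6 lost its call when a single control array was left out. Their c-kit+ arrays all lay above their CD44+ arrays, as for each of the 98 genes higher in c-kit+ cells. With the covariate for the Gapdh gap Apoe (adjusted p = 0.116), Reps2 (0.0695), Gm13238 (0.0661) and A430108G06Rik (0.0765) lost theirs. Apoe, Gm13238 and A430108G06Rik also lost theirs with the covariate for the Actb gap. Apoe, Npl and Cd5l lost theirs with the 6 control arrays fitted alone.

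The largest difference that passed toward c-kit+ cells, that of Hpse, rested on more than 1 array. Hpse encodes heparanase, which cuts heparan sulfate of the matrix, and read 11.28, 10.21 and 10.92 against 9.75, 8.99 and 9.33 (2.72-fold, difference 1.45, SE 0.31, adjusted p = 0.0271). The groups did not overlap, but its adjusted p was 0.12 without c-kit+ replicate 1, 0.0527 without c-kit+ replicate 3, 0.106 without CD44+ replicate 2 and 0.116 without CD44+ replicate 3. Fabp4, a fatty acid binding protein of adipocytes and macrophages, read 11.42, 11.05 and 11.43 against 10.73, 10.14 and 9.51 (2.26-fold, difference 1.17, adjusted p = 0.0219). Its call was lost without c-kit+ replicate 1 (0.0891), CD44+ replicate 2 (0.0566) or CD44+ replicate 3 (0.0712). Of the 4 probe sets of Fabp4, 1 passed when tested on its own. Both genes also lost their calls with the covariates for the Gapdh and Actb gaps (0.0997 and 0.0713 for Hpse, 0.346 and 0.189 for Fabp4).

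Of 29 measured macrophage genes, 6 (20.7%, against 0.539% of all genes) were higher in c-kit+ cells, 1 was higher in CD44+ cells and 22 did not pass, and the median was 0.28. The mean level was 10.86, 10.84 and 10.79 on c-kit+ arrays and 10.55, 10.59 and 10.48 on CD44+ arrays, without overlap. The 6 were Mertk, Apoe, Lgmn (a lysosomal protease, 0.73), Fcgr1 (the high-affinity IgG receptor, 0.71), Mrc1 (the mannose receptor, 0.66) and C1qb (a chain of complement C1q, 0.55). The count was 2 without c-kit+ replicate 1 or CD44+ replicate 3, 4 without CD44+ replicate 1 or 2, and 2 and 3 with the covariates for the Gapdh and Actb gaps. Without CD44+ replicate 3 the adjusted p was 0.0586 for Lgmn, 0.0824 for Fcgr1, 0.136 for Mrc1 and 0.108 for C1qb, and without c-kit+ replicate 1 it was 0.0555, 0.0611, 0.0823 and 0.12. The calls of Fcgr1 and Mrc1 were also lost without c-kit+ replicate 3 (0.0506 and 0.0904), CD44+ replicate 1 (0.0589 and 0.051) or CD44+ replicate 2 (0.0596 and 0.126), that of C1qb without c-kit+ replicate 2 (0.0672), and that of Mrc1 without estradiol replicate 1 of the c-kit+ label (0.0537).

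The macrophage gene higher in CD44+ cells was Cx3cr1, the fractalkine receptor of monocytes and some tissue macrophages. It read 9.18, 8.69 and 8.81 in c-kit+ and 10.15, 9.96 and 9.82 in CD44+ cells, without overlap (difference -1.08, SE 0.21, adjusted p = 0.0164). Without c-kit+ replicate 2 its adjusted p was 0.0573 and without CD44+ replicate 1 it was 0.0607. So the macrophage list held members that passed in opposite directions.

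A list of 28 complement, Fc receptor and scavenger genes had a median of 0.36. Of its members 5 (17.9%, against 0.539% of all genes) were higher in c-kit+ cells and 0 in CD44+ cells. These were Fcgr1, Mrc1 and C1qb, which the macrophage list also holds, Stab1, a scavenger receptor that binds hyaluronan among other ligands (0.79, SE 0.15, adjusted p = 0.00994), and Clec7a, the β-glucan receptor dectin-1 (0.70, adjusted p = 0.0401). The call of Clec7a was also lost without c-kit+ replicate 1 (0.162) or 3 (0.0884), without CD44+ replicate 2 (0.0952), and without any 1 of the 6 estradiol arrays (from 0.0556 to 0.0647). Without CD44+ replicate 3 the count was 0, with Stab1 at an adjusted p of 0.0564, Clec7a at 0.194, Fcgr1 at 0.0824, Mrc1 at 0.136 and C1qb at 0.108. Without c-kit+ replicate 1 the count was 1, without CD44+ replicate 2 it was 2, without CD44+ replicate 1 or c-kit+ replicate 3 it was 3, and with either covariate for RNA quality it was 2. Over all alternatives the count ran from 0 to 11 for this list and from 0 to 10 for the macrophage list. The 6 control arrays fitted alone gave 1 and 2, and with a replicate block 0 and 0.

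**Figure D4:**
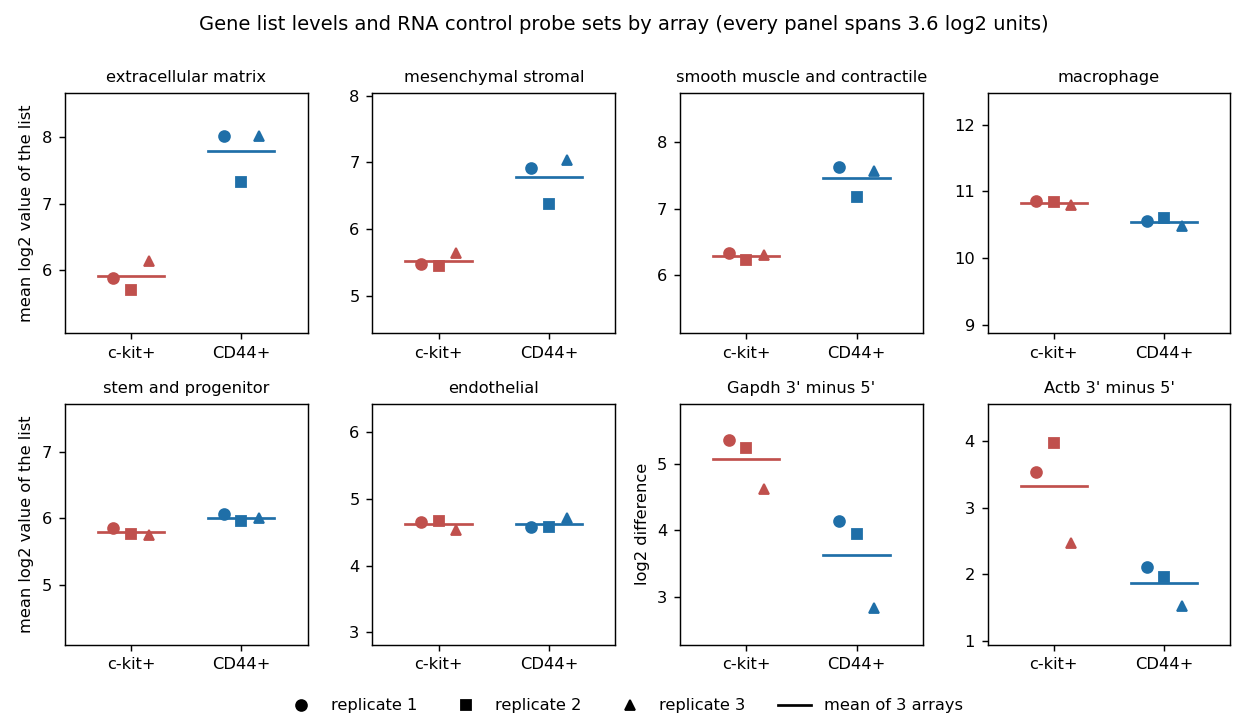
Mean log2 value of 6 gene lists and the 3' minus 5' difference of the Gapdh and Actb control probe sets (vertical axes, each spanning an equal number of log2 units) on the 6 control arrays, 1 point per array with a symbol per replicate number and a line at the mean of 3. The matrix, mesenchymal and contractile lists are lower and the macrophage list and both control measures are higher on every c-kit+ array, CD44+ replicate 2 is the lowest of its group for the first 3 lists, and the endothelial list overlaps.

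Genes of blood stem and progenitor cells did not favour the fraction labelled c-kit+. Of 27 measured, 1 (3.7%) was higher in c-kit+ cells, 1 (3.7%) was higher in CD44+ cells and 25 did not pass, with a median of -0.13. Over all genes tested the shares were 0.539% and 1.76%. Hoxa9, a homeobox gene of blood progenitors that mesenchymal cells of limb bones also use, read 5.80, 5.50 and 6.78 in c-kit+ and 8.92, 7.51 and 8.27 in CD44+ cells (difference -2.21, SE 0.35, adjusted p = 0.00396). It did not pass with the Gapdh (0.0608) or Actb (0.0617) covariate. Cd34, a sialomucin of progenitors, endothelium and some stromal cells, read 7.07, 6.59 and 6.13 against 8.52, 7.76 and 7.35, and did not pass (-1.28, SE 0.32, adjusted p = 0.06) although the groups did not overlap. The member higher in c-kit+ cells was Lmo2, a cofactor of hematopoietic transcription (0.74, adjusted p = 0.0165), a call lost without c-kit+ replicate 1 (0.0555) or CD44+ replicate 3 (0.091). Myb, Gata2, Slamf1 and Flt3 had differences of 0.06, -0.18, -0.01 and -0.16 and did not pass. Of 25 genes of Kit signalling, 1 passed (4%) and was higher in CD44+ cells, as were 1.76% of all genes. It was the antagonist Spry1 (-0.94, adjusted p = 0.0231). Its call was lost without c-kit+ replicate 1 (0.0718) or 2 (0.0632) or CD44+ replicate 3 (0.0571). With the Gapdh and Actb covariates the adjusted p was 0.241 and 0.117 for Spry1 and 0.224 and 0.127 for Lmo2.

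Markers of other cell types that carry c-kit or could stand among cultured marrow cells were near background or mostly did not pass. None of 21 mast cell and basophil genes passed (median -0.05). Cpa3, the mast cell carboxypeptidase, read between 3.77 and 4.14 on the 6 arrays, and 6 of the 21 had all 6 arrays within the Y-linked range. None of 15 erythroid genes, 15 megakaryocyte genes or 16 T and NK cell genes passed, and Hba-a1, an α-globin gene, read between 3.52 and 3.85. Of 22 endothelial genes 1 passed, Stab2 (0.71, adjusted p = 0.0482), which lost its call in 9 of the 12 fits without 1 array (adjusted p up to 0.182), while the endothelial markers Pecam1 and Cdh5 read from 3.52 to 3.94 and from 4.02 to 4.68 with no difference past the threshold. Neutrophil granule genes gave 1 call of 18, Csf3r, the receptor for granulocyte colony-stimulating factor (0.72, adjusted p = 0.0427), which was lost in 8 of those 12 fits (adjusted p up to 0.165). Over all genes tested 0.539% were higher in c-kit+ cells and 1.76% in CD44+ cells.

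Of 17 B-lineage genes 1 (5.88%) was higher in c-kit+ cells and 2 (11.8%) in CD44+ cells, against 0.539% and 1.76% of all genes. Cd22, an inhibitory receptor, was higher in c-kit+ cells (0.88, SE 0.17, adjusted p = 0.0125). Its call was lost without c-kit+ replicate 1 (0.0589) or CD44+ replicate 1 (0.0501). Sdc1, the proteoglycan syndecan 1 of plasma cells and epithelia, was higher in CD44+ cells (-1.08, SE 0.17, adjusted p = 0.00375). Ebf1, a transcription factor of B cells and of stromal and fat precursors, was too (-1.46, adjusted p = 0.0292), a call lost without c-kit+ replicate 1 (0.126) or 2 (0.0606), CD44+ replicate 1 (0.084) or 3 (0.105), or with the Gapdh (0.0832) or Actb (0.0964) covariate. No gene of the interferon response (23 measured, median 0.14), of cholesterol synthesis (16, median 0.15) or among estrogen receptors and their coregulators (12, median -0.02) passed. Of all genes tested 2.3% passed. Esr1, the estrogen receptor α gene, read 7.66, 7.84 and 7.87 in c-kit+ and 7.70, 7.50 and 7.64 in CD44+ cells, with overlap (0.18, adjusted p = 0.688), although 1 of its 3 probe sets passed when tested on its own.

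Arrays within a fraction were not alike in these genes. Among the 320 genes higher in CD44+ cells, CD44+ replicate 2 was the lowest CD44+ array for 271. The medians of these genes were 7.26, 6.56 and 7.24 on the CD44+ arrays and 5.29, 5.21 and 5.36 on the c-kit+ arrays. Among the 98 genes higher in c-kit+ cells, CD44+ replicate 3 was the lowest CD44+ array for 76. Their medians were 9.10, 8.83 and 9.09 on c-kit+ arrays and 8.44, 8.33 and 8.01 on CD44+ arrays. Over all 18193 genes tested, CD44+ replicate 2 was the lowest CD44+ array for 4111 and CD44+ replicate 3 for 8202. For 15 of the 320 all 3 c-kit+ arrays lay at or below the highest Y-linked value, so their fold differences are limited by background. 

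The 6 arrays from estradiol cultures gave the same comparison in samples whose values do not enter the control differences, although they do enter the estimate of spread behind the control calls. All 320 genes higher in CD44+ cells differed in the same direction there, against 42.8% of all genes tested. Of them 285 (89.1%) passed in the estradiol comparison, in which 424 genes (2.33%) were higher in CD44+ cells, so that the shared genes are 67.2% of those 424. Their median difference was -1.59 there and -1.44 in control cultures. With a fit on the 6 estradiol arrays alone, 299 of the 320 passed. With each set of 6 arrays fitted on its own, 180 genes were higher in CD44+ cells in control cultures, and 175 of them passed in the same direction in estradiol cultures (499 genes did in all). Col1a2 read 7.95, 7.26 and 8.20 on the c-kit+ and 11.70, 10.74 and 11.60 on the CD44+ arrays from estradiol cultures (-3.54, adjusted p = 0.000413), and Acta2 read 10.16, 9.95 and 10.44 against 12.83, 12.25 and 12.67 (-2.40, adjusted p = 0.000224).

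Of the 98 genes higher in c-kit+ cells, 97 differed in the same direction (57.2% of all genes tested did), and 33 (33.7%) passed, which are 55.9% of the 59 genes (0.324%) higher in c-kit+ cells there. With the estradiol arrays alone 49 of the 98 passed, and of the 16 genes called with the control arrays alone 10 did, and the median of the 98 was 0.53 against 0.72 in control cultures. Mertk read 10.00, 10.03 and 10.12 against 8.97, 9.19 and 9.28 (0.91, adjusted p = 0.00253), and Abca1 had a difference of 0.86 (adjusted p = 0.00695). Hpse (0.94, adjusted p = 0.206) and Fabp4 (0.68, adjusted p = 0.266) did not pass there. The class II genes H2-Aa (-0.89, adjusted p = 0.204) and Cd74 (-0.72, adjusted p = 0.129) did not either. Cd34, which missed the threshold in control cultures, passed in estradiol cultures (-1.43, adjusted p = 0.0318). Tested as an interaction, the difference between the fractions passed as different between culture conditions for none of the 18193 genes by limma (0 passed, 296 at an unadjusted p under 0.05), and the smallest adjusted p was 1.

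**Figure D5:**
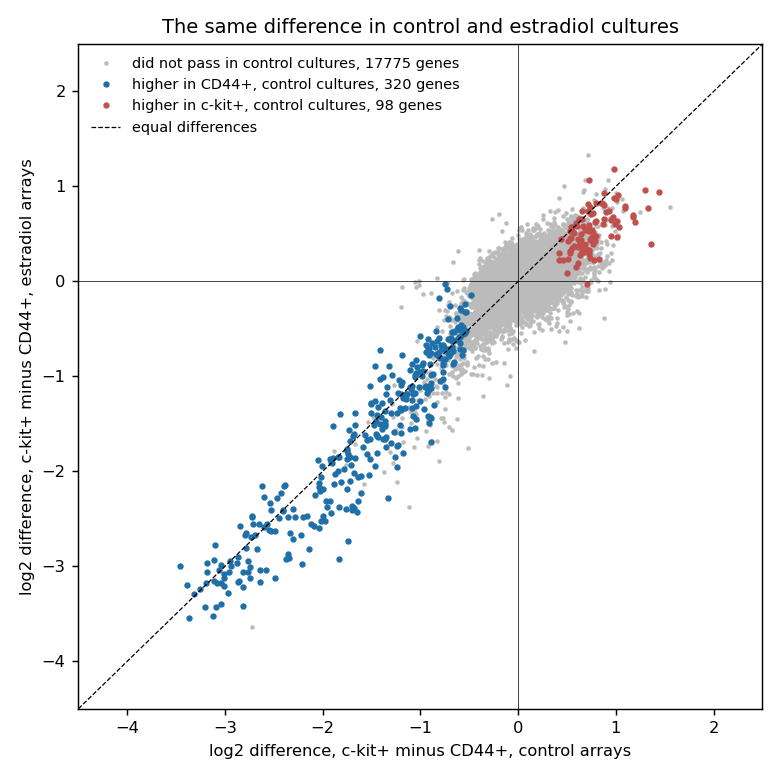
Difference between the fractions (c-kit+ minus CD44+, log2 units) on the 6 control arrays (horizontal axis) and on the 6 estradiol arrays (vertical axis), 1 point per gene, blue for the 320 and red for the 98 genes that passed in control cultures; the dashed line marks equal differences. All blue points lie below 0 on the vertical axis, and 97 of the 98 red points lie above it.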

How the data were processed

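Labelled RNA of 12 samples in 4 groups of 3 was read on 1 type of Affymetrix array, of which the 6 control arrays are compared. The values are log2 expression values that the authors made with RMA and deposited, per the submitters' processing notes; the RMA version and annotation are not given in the sources used here. They were used with no further normalization. Of 45101 probe sets, 34945 named 1 gene in GEO's platform annotation, 932 several and 9160 none, beside 64 controls, and of each of 18193 genes the probe set brightest on average across the 12 arrays was kept. A mean per group was fitted to all 12 arrays with limma 3.58.1 (lmFit and eBayes, R 4.3.3), and p-values were adjusted by Benjamini-Hochberg over all genes, with a threshold of 0.05. The number of arrays limits the precision. The fit was tested on simulated data. Members and the 31 gene lists were chosen with earlier results of these data known, so no list is independent evidence, and no set test was run.

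Genes named are the 20 largest differences in each direction that passed without overlap, up to 5 members of smallest p per list, and a fixed set of markers; the text marks other genes that passed as chosen later, and names some list members that did not pass. Of 803 list entries 731 were measured, 4 through a synonym, and 59 genes stood in several lists. Promoters were matched by symbol. Alternatives covered probe set choice, scaling, filtering, moderation, weights, thresholds, blocks, left-out arrays and RNA quality. Whether the covariates for RNA quality act through RNA or through the cells was not tested.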

Additional observations from a re-analysis of the deposited data

Results flagged for a closer look

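Among probe sets outside the comparison of genes, 73 passed the same limma test between c-kit+ and CD44+ control arrays. Of 9160 that name no gene in the annotation used, 47 were higher in c-kit+ and 13 higher in CD44+ cells. Of 932 that name several genes, 3 were higher in c-kit+ and 10 higher in CD44+ cells.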

How the results depend on the processing

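The 101 genes that were named by the rule above and passed kept their direction in every alternative that held them. The 20 largest differences toward CD44+ cells kept their calls in all 27. The cause of the changes in counts below was not tested. The counts are of genes called, against 418 (98 higher and 320 lower in c-kit+ cells). Limiting the test to genes at or above the median level gave 195 lower, median centring 240 higher, and testing every probe set 150 higher. Array weights gave 1058 (575 higher, 483 lower). A replicate block over all 12 arrays gave 693 (233 higher), 416 of them shared with the 418. The labels do not say that the numbers pair the fractions; deviations of same-numbered arrays from their group means correlated at 0.175, 0.122 and -0.21, and not every array correlated best with its own number, so whether they are paired is not known. The 6 control arrays alone, which estimate the spread from fewer samples, gave 196 (16 higher, 180 lower), and with the replicate block 118 (5 higher, 113 lower). Estradiol cultures gave 59 higher, and the mean of both cultures 1112 (404 higher, 708 lower). Thresholds of 0.1 and 0.01 on the adjusted p gave 671 (231 higher) and 203 (25 higher, 178 lower), and a log2 difference of at least 1 gave 244 (14 higher). Covariates for the Gapdh and Actb gaps, chosen after seeing the data, gave 254 (35 higher) and 257 (48 higher, 209 lower). Leaving out each of the 12 arrays in turn gave 221 to 456 called, 27 to 147 higher and 194 to 358 lower. The interaction with estradiol gave 0 in each fit that could hold it. Genes near the Y-linked range have differences limited by background.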
